A study of Homo sapiens with 24 samples.

Results

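The 10 histone genes described here, of 14232 genes measured in the series, are the linker histone gene H1-2, the H2A genes H2AC6 and H2AJ, the H2B genes H2BC4, H2BC5, H2BC7, H2BC8, H2BC11 and H2BC21, and the H4 gene H4C8. They were picked by symbol, and each had 1 row of the core data annotated with that symbol alone. RNA came from MUTZ-5 and MHH-CALL4, both established lines grown from human B-lineage acute lymphoblastic leukemia. Cells of each line were kept for 8 hours in 500 nM JQ1, a small molecule that competes with acetylated histone tails for the bromodomains of BET proteins, or in DMSO, its solvent. The 4 groups were MUTZ-5 with JQ1, MUTZ-5 with DMSO, MHH-CALL4 with JQ1 and MHH-CALL4 with DMSO, each with 3 arrays, and every array was deposited in a core and an extended summary.

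Replication-dependent histone genes supply the bulk of new histone protein during S phase. They lie in clusters, have no introns, and most of their transcripts end in a stem-loop bound by SLBP in place of a poly(A) tail, with transcription driven through NPAT at histone locus bodies. H2A, H2B, H3 and H4 form the nucleosome core and H1 binds the linker DNA. Of the 10 genes, H2AJ is not of this class: it encodes H2A.J, a replacement variant made outside S phase from a polyadenylated mRNA, so the name replication-type fits the other 9. Members of one histone family are nearly identical in sequence, so the signal credited to a member can include RNA of its relatives, and each value is uncertain in that respect.

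Promoter windows are shown for the members on which the comparisons turn: H2BC11, H2BC21 and H2BC5, with the largest JQ1 effects among the H2B members, H2BC4, an H2B member that did not pass the test in core form, and H4C8 and H2AJ, whose effects differed between the lines. Each runs from 250 bases before the annotated transcript start to 50 bases after it (300 bases, RefSeq, GRCh38.p14), written 5′ to 3′ on the gene's strand. Capitals mark 3 motifs on either strand, the octamer ATTTGCAT (the POU factor site of H2B promoters), the CCAAT box (CCAAT) and the TATA box (TATAAA). Where matches overlapped, they form 1 run of capitals.
H2BC11 (chr6:27132746-27133045, minus strand): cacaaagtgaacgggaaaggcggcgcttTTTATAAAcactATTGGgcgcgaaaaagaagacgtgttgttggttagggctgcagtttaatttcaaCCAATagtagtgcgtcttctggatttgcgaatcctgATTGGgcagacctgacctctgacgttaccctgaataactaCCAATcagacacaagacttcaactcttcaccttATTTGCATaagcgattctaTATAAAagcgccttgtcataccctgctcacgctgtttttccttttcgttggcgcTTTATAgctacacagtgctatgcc
H2BC21 (chr1:149886633-149886932, minus strand): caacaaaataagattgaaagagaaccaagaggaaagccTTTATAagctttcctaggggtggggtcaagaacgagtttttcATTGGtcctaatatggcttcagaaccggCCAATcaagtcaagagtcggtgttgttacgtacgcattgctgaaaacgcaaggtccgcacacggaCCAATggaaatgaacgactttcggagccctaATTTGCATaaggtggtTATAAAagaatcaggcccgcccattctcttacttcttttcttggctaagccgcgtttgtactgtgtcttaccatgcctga
H2BC5 (chr6:26157871-26158170, plus strand): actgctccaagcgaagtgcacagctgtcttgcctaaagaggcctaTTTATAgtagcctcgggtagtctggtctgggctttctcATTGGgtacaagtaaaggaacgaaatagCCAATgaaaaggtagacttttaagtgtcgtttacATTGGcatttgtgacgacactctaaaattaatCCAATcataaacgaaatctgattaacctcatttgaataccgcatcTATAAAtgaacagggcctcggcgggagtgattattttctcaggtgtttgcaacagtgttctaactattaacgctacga
H2BC4 (chr6:26123877-26124176, minus strand): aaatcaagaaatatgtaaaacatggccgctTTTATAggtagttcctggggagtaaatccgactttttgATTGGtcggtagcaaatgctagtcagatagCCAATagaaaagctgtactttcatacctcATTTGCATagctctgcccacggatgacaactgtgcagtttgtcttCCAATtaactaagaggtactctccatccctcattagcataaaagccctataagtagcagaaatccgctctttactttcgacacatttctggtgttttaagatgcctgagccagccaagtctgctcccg
H4C8 (chr6:26285485-26285784, minus strand): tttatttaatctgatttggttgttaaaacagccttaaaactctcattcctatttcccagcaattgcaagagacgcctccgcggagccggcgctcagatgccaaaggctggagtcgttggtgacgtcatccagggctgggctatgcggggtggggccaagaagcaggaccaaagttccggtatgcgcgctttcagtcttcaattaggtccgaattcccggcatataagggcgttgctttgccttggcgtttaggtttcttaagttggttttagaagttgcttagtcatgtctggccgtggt
H2AJ (chr12:14774155-14774454, plus strand): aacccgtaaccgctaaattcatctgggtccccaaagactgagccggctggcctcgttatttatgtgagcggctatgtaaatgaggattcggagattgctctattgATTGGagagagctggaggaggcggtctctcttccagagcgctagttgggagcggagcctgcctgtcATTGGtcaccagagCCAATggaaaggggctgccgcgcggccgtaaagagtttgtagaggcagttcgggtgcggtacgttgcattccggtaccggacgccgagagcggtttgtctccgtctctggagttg

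The octamer stood in the windows of 6 of the 10 genes, against 1.8% of the 27305 windows of all genes. In H2BC8, H2BC11 and H2BC21 it began at -48, -47 and -46, counting the first transcribed base as 0, and was followed by a TATA box at -32, -28 and -30. In H2BC4 and H2BC7 it began at -123 and -111, and in H2AC6 at -130 on the opposite strand. H2BC5, H2AJ, H4C8 and H1-2 had no exact match in this window. Of the 2 windows listed for H2BC5, only the first was searched. Near matches were not counted, such as atttgaat in H2BC5 and attagcat in H2BC4. H2BC4 and H2AC6 are transcribed away from each other, and their windows share 255 bases, so their octamer is 1 and the same. Their TATA box and CCAAT boxes are likewise shared, and are counted in both windows. The TATA box lay at -31 in H2AC6, and at -220 on the opposite strand in H2BC4.

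The CCAAT box was in 9 of the 10 windows, H4C8 being the one without it (35.7% of all windows), and the TATA box in 6 of 10 (3264 of the 27305 windows of all genes). The E-box CACGTG, a MYC and MAX site, was in 0 of 10 (7.43% of all windows). Among the other histone genes measured, the octamer was in 71.4% of the 7 H2B windows, 70.0% of the 10 H2A windows and 0 of the 16 H3 and H4 windows. An octamer near the start was not confined to the genes called higher. H2BC14 had it at -48, and its JQ1 effects were 0.06 in MUTZ-5 and 0.11 in MHH-CALL4 (limma, adjusted p = 0.656 and 0.264). Its group means were 14.16 to 14.35, near the highest value on any core array (14.94). All its JQ1 arrays still lay above its DMSO arrays in both lines. H2BC10, with group means of 4.06 to 5.06, had the octamer at -45. Its effects were 0.63 in MUTZ-5 and 0.67 in MHH-CALL4 (limma adjusted p = 0.159 and 0.104). H2BC5, which rose in both lines, had no exact octamer match in the window searched. A match to these letters is a description of the window and not a site shown to be used.

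**Figure D1:**
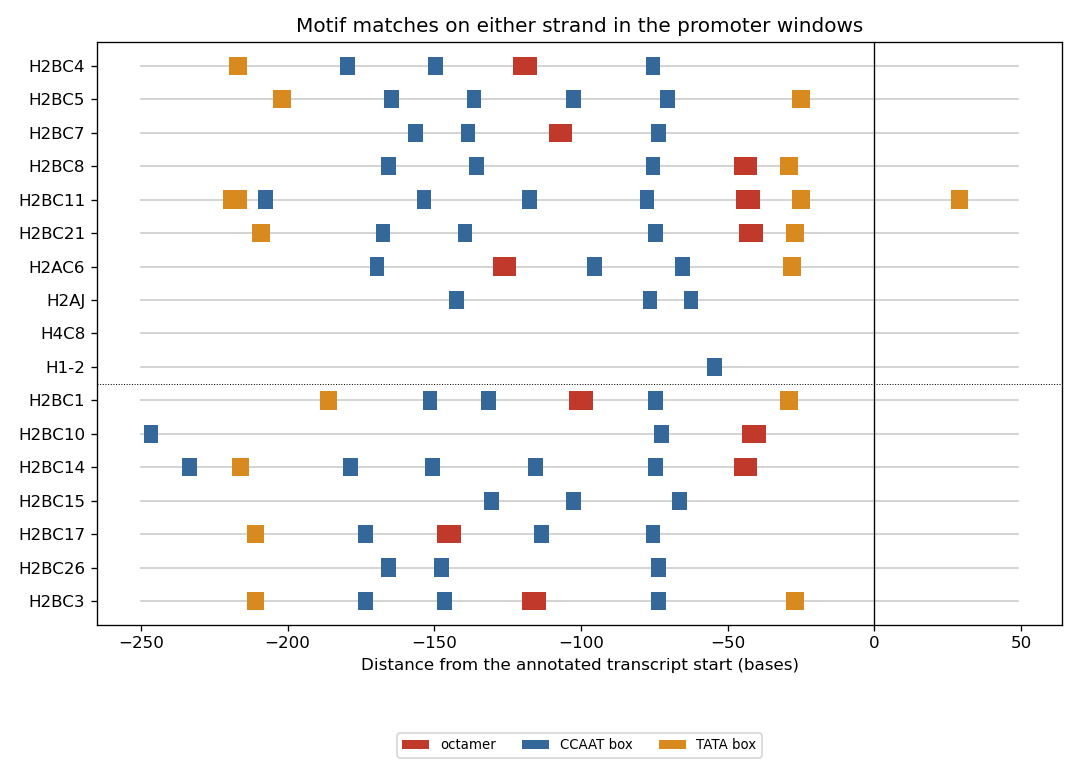
Matches of the octamer, CCAAT box and TATA box in the promoter windows of the 10 histone genes (above the dotted line) and of 7 other H2B genes measured, by distance in bases from the annotated transcript start. H2BC8, H2BC11, H2BC21, H2BC10 and H2BC14 had the octamer within 50 bases of the start, and H4C8 had no match to any of the 3 motifs.

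The labelled cell type was checked against marker genes. Of 10 B cell precursor markers 8 were measured, and 7 of the 8 lay at or above the median of all genes (8.52) in each of the 4 groups, with list medians between 11.98 and 12.31. Medians of T and NK cell, of monocyte and granulocyte, and of erythroid and megakaryocyte markers lay between 6.27 and 7.40. Of the 8 T and NK cell markers 1, NKG7, lay at or above 8.52 in each group (9.02 to 10.47). Of the 7 monocyte and granulocyte markers 1, ELANE, did so in each group (8.54 to 8.67). MPO joined it in MHH-CALL4 with DMSO. Of the 4 erythroid and megakaryocyte markers measured 0 did. The files hold no detection calls. With JQ1, 4 of the 8 B cell precursor markers fell in each line by limma, and 1, RAG1, rose in MUTZ-5. Over all genes, 13% fell and 9.06% rose in MUTZ-5, and 17.5% fell and 11% rose in MHH-CALL4. VPREB1, a surrogate light chain gene, had the largest change of the 8, -1.09 in MUTZ-5 and -1.03 in MHH-CALL4. Of the 7 monocyte and granulocyte markers measured, MPO, the myeloid granule peroxidase, fell in MUTZ-5 and MPO and LYZ in MHH-CALL4, with list medians of 0.04 and 0.03, and of the 8 T and NK cell markers NKG7 fell in both lines (-0.64 and -0.96). MPO was 8.04 ± 0.22 under JQ1 and 10.51 ± 0.05 under DMSO in MHH-CALL4 (log2, SD, n = 3). The part of these markers in the histone values was not tested. In these bulk samples, fewer cells of a type and less RNA per cell cannot be told apart. Array medians lay between 8.46 and 8.57. The 2 arrays that stood furthest from the rest of their group, on the leading component of the within-group spread, were MUTZ-5 DMSO replicate 3 (score 0.55) and, on the other side, MHH-CALL4 JQ1 replicate 3 (-0.47). MUTZ-5 DMSO replicate 3 was the highest of its group for 8 of the 10 histone genes. Values without these arrays are given beside the JQ1 effects of members whose call they change.

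With JQ1, 4 of the 6 H2B members and H4C8 rose in both lines, while 4 of the 10 genes passed the test in neither line in the core summary. These 4, H2BC4, H2BC7, H2AC6 and H1-2, had the highest core means of the 10. Their means were 11.93 to 13.74, against 7.90 to 10.99 for the others. Whether a high signal limited their differences was not tested. In MUTZ-5, 6 of 10 were called higher with JQ1 (background 9.06% of all genes), and in MHH-CALL4 5 of 10 (background 11%). The call is an adjusted p under 0.05 from limma, a linear model fitted to all 14232 genes. H2BC5, H2BC8, H2BC11, H2BC21 and H4C8 rose in both lines, which 5.74% of all genes did, and H2AJ rose in MUTZ-5. No member was called lower in either line by limma (backgrounds 13% in MUTZ-5 and 17.5% in MHH-CALL4), and at an unadjusted p under 0.05 that count was also 0. The median effect over the 10 genes was 0.54 in MUTZ-5 and 0.42 in MHH-CALL4, against 0.01 over all genes in each line (log2 differences). The genes were put together with earlier results of these data known, so neither the direction nor the counts are independent evidence of a response.

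Counted array by array, all 3 JQ1 values lay above all 3 DMSO values for 7 of 10 genes in MUTZ-5 (background 13.8%) and 6 of 10 in MHH-CALL4 (background 19.7%). The MUTZ-5 set held H2BC7 and H2AC6, which were not called there, and lacked H2BC8, which was called.

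**Figure D2:**
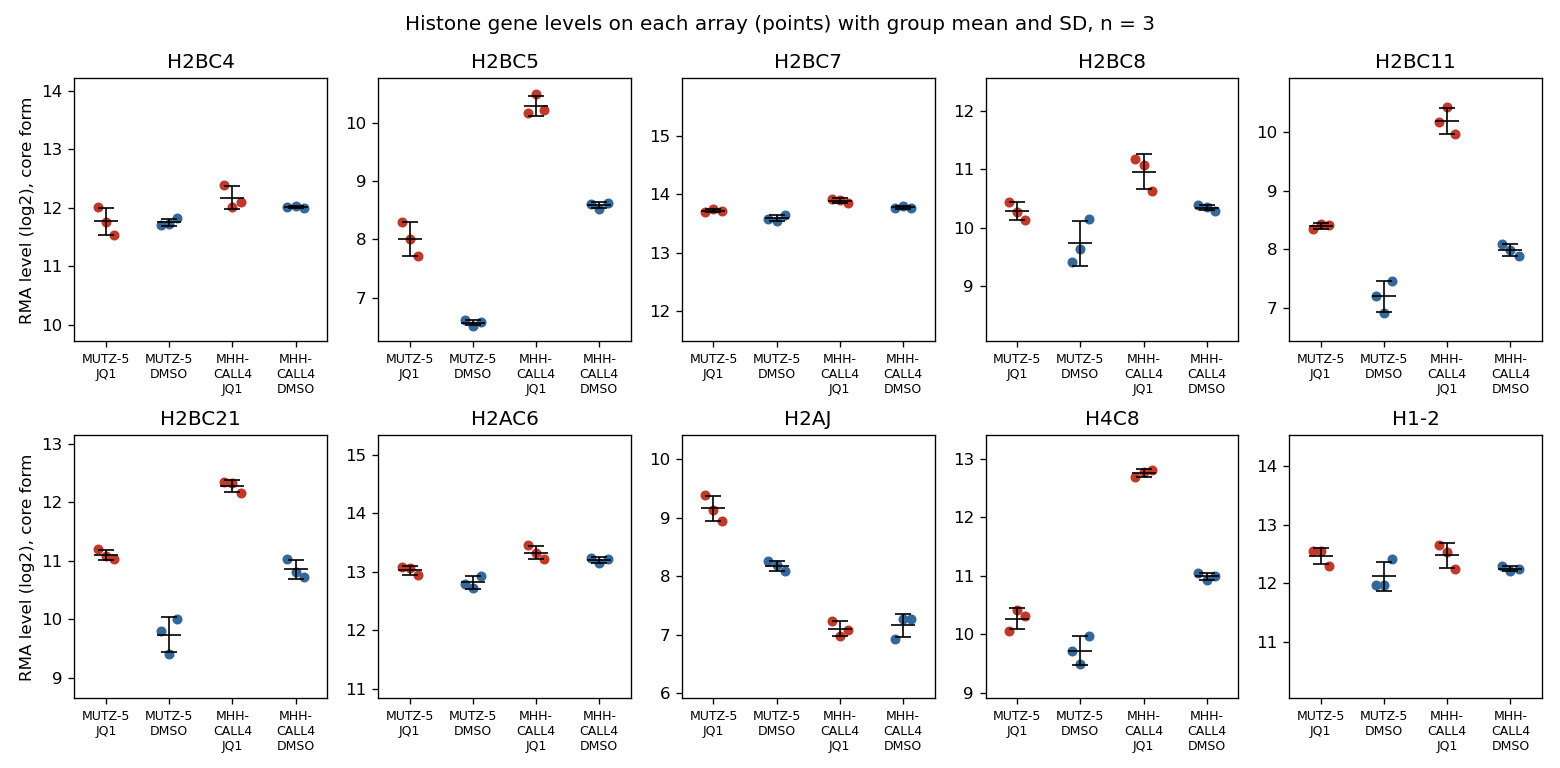
Core log2 level of each of the 10 histone genes on every array, by line and treatment, with JQ1 in red and DMSO in blue. Points are arrays, and bars are the group mean and SD (n = 3). All panels span the same log2 range. JQ1 points of H2BC5, H2BC11, H2BC21 and H4C8 lie above the DMSO points in both lines, and those of H2AJ in MUTZ-5.

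The H2B members encode near-identical core histones of the nucleosome, the protein on which a ubiquitin mark is set during transcription. H2BC11 had 8.35, 8.43 and 8.42 on the MUTZ-5 JQ1 arrays, against 7.21, 6.92 and 7.46 under DMSO (core log2 levels). The MHH-CALL4 values were 10.17, 10.43 and 9.98 with JQ1, against 8.09, 7.98 and 7.88 under DMSO. The JQ1 arrays lay above the DMSO arrays in both lines, with no overlap. It rose by 1.20 ± 0.13 in MUTZ-5 (log2 difference ± SE, limma adjusted p = 2.38e-05) and by 2.21 ± 0.13 in MHH-CALL4 (4.62-fold, adjusted p = 7.6e-08). The rise was smaller in MUTZ-5, by -1.003 (95% interval -1.41 to -0.60, limma adjusted p = 0.0136 for the difference). All MUTZ-5 values of H2BC11, and its DMSO values in MHH-CALL4, lay below the median of all genes (8.52). Signal over background is unknown there.

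H2BC5 had 8.29, 8.00 and 7.72 with JQ1 in MUTZ-5, against 6.62, 6.52 and 6.59 under DMSO. In MHH-CALL4 the values were 10.16, 10.49 and 10.22 with JQ1 and 8.60, 8.52 and 8.62 under DMSO. The 2 lines did not overlap under either treatment, and even the highest MUTZ-5 JQ1 array was below the lowest MHH-CALL4 DMSO array. All MUTZ-5 values of H2BC5 lay below the median of all genes (8.52), with signal over background unknown. H2BC5 rose by 1.43 ± 0.12 in MUTZ-5 (2.69-fold, limma adjusted p = 2.79e-06) and by 1.71 ± 0.12 in MHH-CALL4 (3.27-fold, adjusted p = 4e-07). The effects differed by -0.28 (95% interval -0.66 to 0.10), which did not pass the test (adjusted p = 0.655).

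H2BC21, the member on chromosome 1, had 11.19, 11.08 and 11.03 with JQ1 and 9.79, 9.41 and 9.999 with DMSO in MUTZ-5. In MHH-CALL4 it had 12.34, 12.32 and 12.16 with JQ1 and 11.03, 10.80 and 10.72 with DMSO. No JQ1 array overlapped a DMSO array of the same line. It rose by 1.36 ± 0.13 in MUTZ-5 (limma adjusted p = 6.77e-06) and by 1.42 ± 0.13 in MHH-CALL4 (adjusted p = 3.23e-06), and the difference of the effects was -0.06 (95% interval -0.45 to 0.34, adjusted p = 0.963).

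H2BC8 had the least firm call of the H2B members that rose. With JQ1 it had 10.44, 10.27 and 10.14 in MUTZ-5, against 9.41, 9.64 and 10.16 under DMSO. Replicate 3 under DMSO lay above the lowest JQ1 array, so the groups overlapped. In MHH-CALL4 the values were 11.19, 11.07 and 10.62 with JQ1 and 10.39, 10.35 and 10.29 with DMSO, without overlap. The rise was 0.55 ± 0.17 in MUTZ-5 (limma adjusted p = 0.0372) and 0.61 ± 0.17 in MHH-CALL4 (adjusted p = 0.0176). Without MUTZ-5 DMSO replicate 1 the MUTZ-5 value was 0.38 (adjusted p = 0.168), without MUTZ-5 DMSO replicate 3 it was 0.76, and 8 of 21 alternative settings lost the MUTZ-5 call. In MHH-CALL4 4 of 21 lost it, with adjusted p up to 0.0689 when MHH-CALL4 JQ1 replicate 1 was left out.

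H2BC4 and H2BC7 did not pass the test in core form. H2BC4 had 12.01, 11.76 and 11.54 with JQ1 and 11.71, 11.72 and 11.83 with DMSO in MUTZ-5, a difference of 0.02 (95% interval -0.23 to 0.27, limma adjusted p = 0.948). MHH-CALL4 arrays gave 12.39, 12.02 and 12.10 with JQ1 and 12.02, 12.02 and 11.99 with DMSO, a difference of 0.16 (-0.09 to 0.41, adjusted p = 0.347). The JQ1 and DMSO arrays overlapped in both lines. H2BC7 differed by 0.13 in MUTZ-5 (-0.01 to 0.26, adjusted p = 0.197) and 0.11 in MHH-CALL4 (-0.02 to 0.25, adjusted p = 0.205). Its JQ1 arrays, 13.69 to 13.74 in MUTZ-5 and 13.85 to 13.92 in MHH-CALL4, lay above its DMSO arrays, 13.54 to 13.65 and 13.76 to 13.80, in each line.

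H4C8, the H4 member, had the largest difference in JQ1 effect between the lines among the 10 genes in core form. In MUTZ-5 it had 10.06, 10.41 and 10.31 with JQ1, against 9.71, 9.48 and 9.96 with DMSO. In MHH-CALL4 it had 12.68, 12.78 and 12.81 with JQ1, against 11.04, 10.93 and 10.99 with DMSO. JQ1 arrays lay above DMSO arrays in both lines, and all MUTZ-5 arrays lay below all MHH-CALL4 arrays. H4C8 rose by 0.54 ± 0.12 in MUTZ-5 (1.46-fold, limma adjusted p = 0.0038) and by 1.77 ± 0.12 in MHH-CALL4 (3.41-fold, adjusted p = 1.73e-07). The rise was smaller in MUTZ-5 by -1.23 (95% interval -1.58 to -0.87, adjusted p = 0.00122).

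H2AJ, the replacement variant, had the larger effect in MUTZ-5. It had 9.39, 9.13 and 8.95 with JQ1 and 8.27, 8.18 and 8.09 with DMSO in MUTZ-5, without overlap. In MHH-CALL4 the values were 7.24, 6.98 and 7.08 with JQ1 and 6.93, 7.27 and 7.28 with DMSO, and the groups overlapped. These MHH-CALL4 values lie below the median of all genes (8.52). Without detection calls, it is unknown whether H2AJ was expressed above background in that line. It rose by 0.98 ± 0.12 in MUTZ-5 (1.97-fold, limma adjusted p = 6.68e-05), while the MHH-CALL4 difference was -0.06 (95% interval -0.32 to 0.21, adjusted p = 0.773). The effects differed by 1.04 (0.66 to 1.41, adjusted p = 0.00659). H2AJ was thus the only one of the 10 called higher in MUTZ-5 and not in MHH-CALL4 in the core summary.

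H2AC6, an H2A gene that shares its promoter region with H2BC4, had 13.08, 13.07 and 12.94 with JQ1 and 12.80, 12.73 and 12.93 with DMSO in MUTZ-5. The MHH-CALL4 arrays read 13.45, 13.32 and 13.22 with JQ1 and 13.24, 13.16 and 13.21 with DMSO, with overlap. The differences were 0.21 in MUTZ-5 (95% interval 0.03 to 0.39, limma adjusted p = 0.0906) and 0.13 in MHH-CALL4 (-0.05 to 0.30, adjusted p = 0.28). H1-2, a linker histone gene, had 12.55, 12.54 and 12.30 with JQ1 and 11.98, 11.96 and 12.40 with DMSO in MUTZ-5. In MHH-CALL4 it had 12.65, 12.53 and 12.24 with JQ1 and 12.29, 12.21 and 12.24 with DMSO. Its arrays overlapped in both lines, and the differences were 0.35 in MUTZ-5 (0.07 to 0.63, adjusted p = 0.0727) and 0.23 in MHH-CALL4 (-0.05 to 0.51, adjusted p = 0.212). Without MUTZ-5 DMSO replicate 3, both passed in MUTZ-5, H2AC6 at 0.27 (adjusted p = 0.0374) and H1-2 at 0.49 (adjusted p = 0.00777). H1-2 in MUTZ-5 also passed without MHH-CALL4 JQ1 replicate 3 (adjusted p = 0.0421) and without MUTZ-5 JQ1 replicate 3 (0.43, adjusted p = 0.0482).

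**Figure D3:**
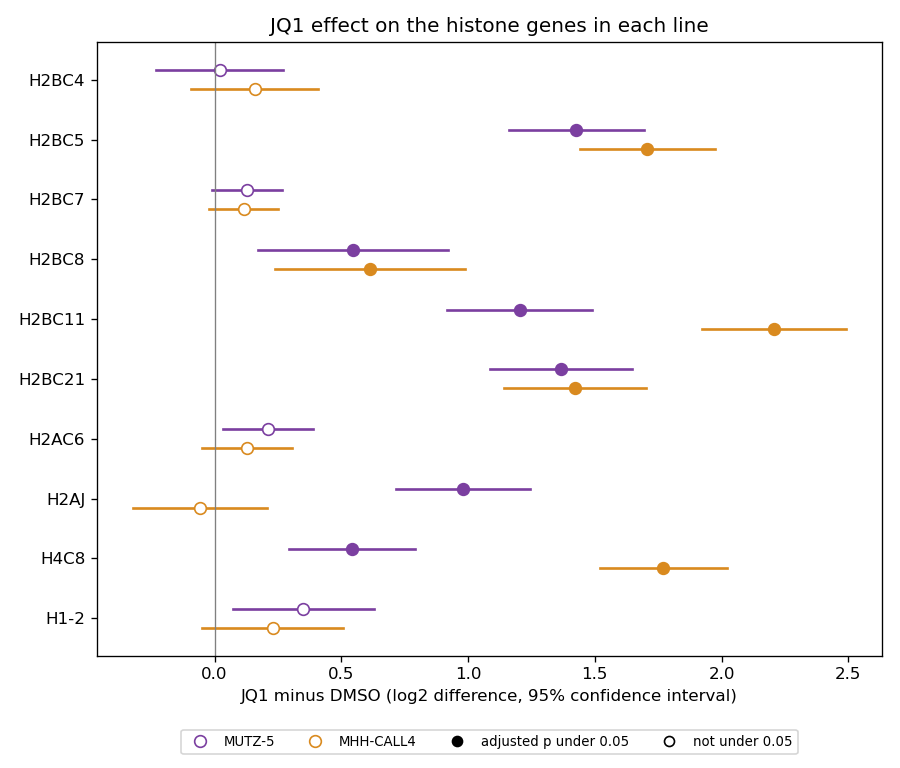
JQ1 minus DMSO in log2 units for the 10 histone genes in MUTZ-5 (purple) and MHH-CALL4 (orange), with 95% confidence intervals from limma. Filled points passed an adjusted p of 0.05 over all genes. H2BC11 and H4C8 lie further to the right in MHH-CALL4, and H2AJ lies at 0.98 in MUTZ-5 and at -0.06 in MHH-CALL4.

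The difference of the JQ1 effects passed for 3 of the 10 genes, H2BC11, H4C8 and H2AJ, against 1.53% of all genes. For the other 7, the difference lay between -0.28 for H2BC5 and 0.12 for H1-2, with adjusted p from 0.655 up, and the widest interval was that of H2BC8 (-0.60 to 0.46).

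The level of the 10 genes also differed between the lines without JQ1. Under DMSO, 7 were lower in MUTZ-5 than in MHH-CALL4 and H2AJ was higher, 8 called in all (background 23.4% in either direction). H2BC5 was lower by the most, at -2.00 ± 0.12 (log2 difference MUTZ-5 minus MHH-CALL4 ± SE, limma adjusted p = 3.08e-08), followed by H4C8 at -1.27, H2BC21 at -1.12, H2BC11 at -0.79, H2BC8 at -0.61, H2AC6 at -0.38 and H2BC7 at -0.19. H2AJ was higher by 1.02 ± 0.12 (adjusted p = 2.59e-05). H2BC4 differed by -0.26 (adjusted p = 0.13) and H1-2 by -0.13 (adjusted p = 0.52). The H2BC7 call was lost in 11 of 19 alternatives (limma adjusted p up to 0.132) and that of H2BC8 in 4 of 19 (up to 0.0963), and H2BC11 stood at -0.38 in extended form (adjusted p = 0.0917).

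Under JQ1, 8 were again called (background 19.9%), 7 lower in MUTZ-5 and H2AJ higher. H4C8 stood at -2.50 ± 0.12, H2BC5 at -2.28 ± 0.12, H2BC11 at -1.79 ± 0.13 and H2BC21 at -1.18 ± 0.13, and H2AJ at 2.06 ± 0.12 (limma adjusted p from 1.99e-09 for H4C8 to 1.22e-05 for H2BC21). Without MHH-CALL4 JQ1 replicate 1 the number called fell to 5. This comparison and the one under DMSO use the same arrays as the JQ1 effects of the lines and are not separate evidence.

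The order of the 4 groups was alike for several members. By core group means, MHH-CALL4 with JQ1 was highest and MUTZ-5 with DMSO lowest for every member except H2AJ. The 2 groups between them differed in order. For H2BC11 the MUTZ-5 JQ1 arrays (8.35 to 8.43) lay above the MHH-CALL4 DMSO arrays (7.88 to 8.09), for H2BC5 and H4C8 they lay below, and for H2BC8 and H2BC21 the groups overlapped. H2AJ had the reverse order of lines, MUTZ-5 with JQ1 highest, then MUTZ-5 with DMSO, and the MHH-CALL4 groups, which overlapped, lowest.

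Each array was also summarised over the extended probe set list, which adds probe sets with less annotation support to a transcript cluster. Both forms come from the same scan, so they are 1 sample read in 2 ways. In extended form, all 10 genes were called higher with JQ1 in MUTZ-5 (background 8.53%) and 8 of 10 in MHH-CALL4 (background 11%). The exceptions in MHH-CALL4 were H2AJ at -0.10 and H1-2 at 0.36 (limma adjusted p = 0.535 and 0.0517).

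In MHH-CALL4, H2AC6, H2BC4 and H2BC7 changed most between the forms. In MUTZ-5 H2BC4 and H2BC7 did, while H2AC6 moved by 0.15. H2BC4 in extended form had 7.11, 7.07 and 7.03 with JQ1 and 6.21, 6.58 and 6.49 with DMSO in MUTZ-5. On the MHH-CALL4 arrays it had 9.26, 9.17 and 8.22 with JQ1 and 7.40, 7.54 and 7.30 with DMSO. The JQ1 arrays lay above the DMSO arrays in both lines, unlike in core form, and the differences were 0.64 ± 0.20 in MUTZ-5 (adjusted p = 0.0349) and 1.48 ± 0.20 in MHH-CALL4 (limma adjusted p = 8.03e-05). H2BC7 differed by 0.71 ± 0.09 in MUTZ-5 (adjusted p = 8.5e-05) and 0.85 ± 0.09 in MHH-CALL4 (limma adjusted p = 1.17e-05).

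H2AC6 in extended form had 8.84, 8.85 and 8.75 with JQ1 and 8.59, 8.50 and 8.28 with DMSO in MUTZ-5. In MHH-CALL4 it had 11.09, 11.09 and 10.79 with JQ1 and 9.59, 9.33 and 9.42 with DMSO. The rise was 0.36 ± 0.10 in MUTZ-5 (adjusted p = 0.0241) and 1.55 ± 0.10 in MHH-CALL4 (limma adjusted p = 1.15e-07). Its difference between the lines was then -1.19 (95% interval -1.50 to -0.87, adjusted p = 0.000535), with the opposite sign to the core difference of 0.08.

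H4C8 and H2AJ kept their values more closely. The rise of H4C8 was 0.74 in MUTZ-5 and 1.91 in MHH-CALL4 in extended form, and its difference between the lines was -1.17 (limma adjusted p = 0.00473). H2AJ gave 0.98 in MUTZ-5 and -0.10 in MHH-CALL4, with a difference of 1.08 (adjusted p = 0.00134). The rise of H2BC11 was less in extended form, 0.76 in MUTZ-5 and 1.53 in MHH-CALL4, and its difference between the lines, -0.77, no longer passed (limma adjusted p = 0.129). The extended difference passed for 3 of 10, H2AC6, H4C8 and H2AJ (background 1.43%). The values of H2BC8 were identical in both forms. Which genes the added probe sets read was not tested.

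**Figure D4:**
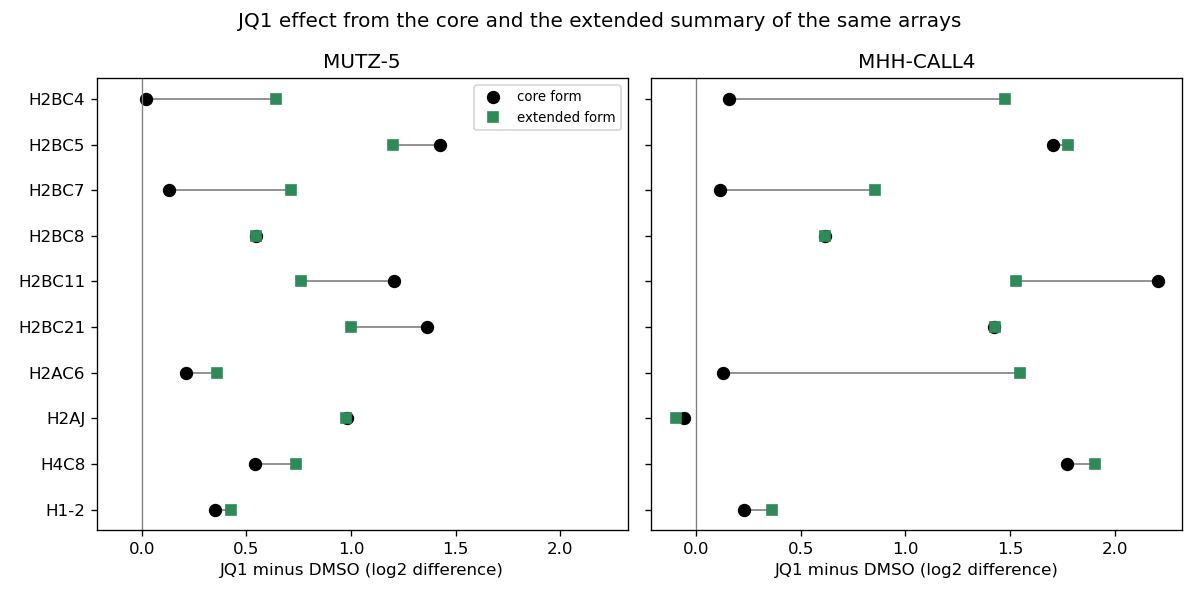
JQ1 minus DMSO (log2) of the 10 histone genes from the core (circles) and the extended (squares) summary of the same arrays, MUTZ-5 on the left and MHH-CALL4 on the right. H2BC4, H2BC7 and H2AC6 shift to the right in extended form, H2AC6 mainly in MHH-CALL4, and H2BC11 shifts to the left.

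The other replication-dependent histone genes were taken as a list of 63, of which 43 had a core row of their own. H2AX, an H2A variant gene, was kept in this list, and it rose with JQ1 in both lines. With JQ1, 20 of the 43 were called higher in MUTZ-5 and 1 lower, and 18 were called higher in MHH-CALL4 and none lower (limma, and 0 lower at an unadjusted p under 0.05). The backgrounds are 9.06% and 11% higher. Medians were 0.31 in MUTZ-5 and 0.30 in MHH-CALL4, below the 0.54 and 0.42 of the 10 chosen genes, and 12 genes rose in both lines. Without MUTZ-5 DMSO replicate 2 the MUTZ-5 count was 13.

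Rises in both lines among these included those of the H2A gene H2AC11 (0.65 in MUTZ-5 and 1.25 in MHH-CALL4), the linker histone gene H1-1 (0.46 and 0.94, in the same order of lines), the H3 gene H3C8 (0.76 and 0.82) and the H2A gene H2AC17 (0.82 and 0.78). The largest rise in MUTZ-5 among the 43 was that of H4C16, an H4 gene, at 0.87 (limma adjusted p = 0.00391), with 0.44 in MHH-CALL4 (adjusted p = 0.099). H1-6, the testis linker histone gene, fell by 0.40 in MUTZ-5 and rose by 0.43 in MHH-CALL4, and the difference of -0.83 passed (adjusted p = 0.0276).

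Genes of every histone family were among those called. With the 9 replication-dependent members included, the genes called higher in MUTZ-5 were 2 of 6 for H1, 7 of 12 for H2A, 5 of 13 for H2B, 6 of 10 for H3 and 5 of 11 for H4. In MHH-CALL4 they were 3 of 6 for H1, 6 of 12 for H2A, 5 of 13 for H2B, 5 of 10 for H3 and 4 of 11 for H4. All H2A counts here include the variant gene H2AX. The H2B counts rest mostly on the chosen genes: of the 7 H2B genes outside them, 1 was called in each line (14.3%, against 9.06% of all genes in MUTZ-5 and 11% in MHH-CALL4). The 10 were chosen with earlier results of these data known, so this split is not independent of the choice. Rows that several genes share, such as that of H2BC18, are outside these counts. Of the genes outside the chosen 10, 7 of 11 for H2A, 6 of 10 for H3, 4 of 10 for H4 and 2 of 5 for H1 were called higher in MUTZ-5. In MHH-CALL4 these were 6 of 11 for H2A, 5 of 10 for H3, 3 of 10 for H4 and 3 of 5 for H1. The called H2B genes were not the same: H2BC17 rose in MUTZ-5 (0.28, limma adjusted p = 0.0332) and H2BC26 in MHH-CALL4 (0.67, adjusted p = 0.0026).

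**Figure D5:**
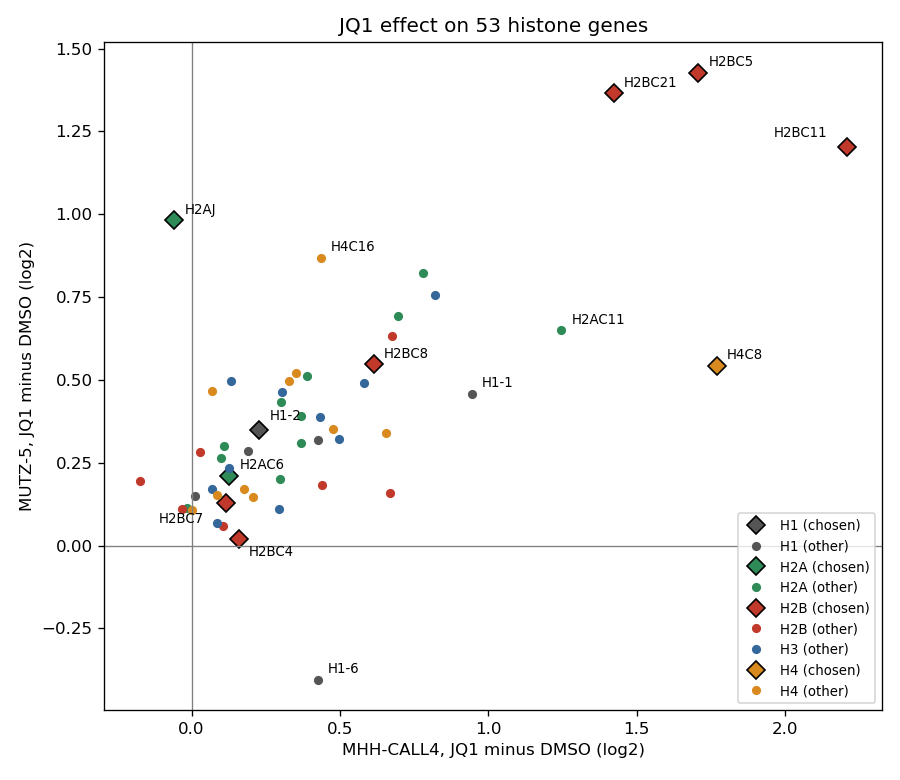
JQ1 minus DMSO (log2) in MUTZ-5 (vertical) against MHH-CALL4 (horizontal) for 53 histone genes, coloured by family, with the 10 chosen genes as diamonds. H2BC5, H2BC21 and H2BC11 lie furthest to the upper right, H4C8 and H2AC11 lie to the right, H2AJ lies on the left at 0.98 in MUTZ-5, and H1-6 lies below 0 in MUTZ-5.

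Neighbours on the chromosome were compared through the RefSeq gene order. H2AC11, next to H2BC11, rose in both lines as did H2BC11, and H2AC8, next to H2BC8, rose by 0.51 in MUTZ-5 and 0.39 in MHH-CALL4. H4C16, next to H2AJ on chromosome 12, was called in MUTZ-5, as H2AJ was. H1-4, which lies between H2AC6 and H2BC5 on chromosome 6, had 0.15 in MUTZ-5 and 0.01 in MHH-CALL4 and passed in neither (limma adjusted p = 0.224 and 0.941). Beside H4C8, H2BC10 had 0.63 in MUTZ-5 and 0.67 in MHH-CALL4 (adjusted p = 0.159 and 0.104). On its other side BTN3A2, a butyrophilin gene, had -0.29 in MUTZ-5 (adjusted p = 0.083) and fell by 0.81 in MHH-CALL4 (adjusted p = 0.000103). H4C5, which lies between H2BC7 and H2BC8, rose by 0.47 in MUTZ-5 (adjusted p = 0.00215), with 0.07 in MHH-CALL4 (adjusted p = 0.638). Beside H1-2, H3C3 rose by 0.23 in MUTZ-5 (limma adjusted p = 0.0356), where H1-2 was not called, with 0.13 in MHH-CALL4 (adjusted p = 0.224). On the other side HFE, the iron regulator gene, passed in neither line.

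Of 9 measured histone genes that are expressed outside S phase, 3 rose and 1 fell in each line, against backgrounds of 9.06% higher and 13% lower in MUTZ-5 and 11% and 17.5% in MHH-CALL4. The list medians were 0.09 in MUTZ-5 and 0.10 in MHH-CALL4. H1-10, a replacement linker histone, rose by 0.76 in MUTZ-5 and 0.87 in MHH-CALL4, and CENPA, the centromeric H3 variant, by 0.39 and 0.31. MACROH2A1, an H2A variant of repressed chromatin, fell by 0.47 in MUTZ-5 and fell by 0.53 in MHH-CALL4. H2AZ2, an H2A.Z gene, rose by 0.41 in MUTZ-5, with 0.01 in MHH-CALL4 (limma adjusted p = 0.0528 for the difference of 0.40).

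The machinery of histone expression was given by 21 measured genes for transcription and 3′ end processing. In MUTZ-5 1 rose, the histone gene regulator HINFP (0.24), and 4 fell. In MHH-CALL4 none rose (limma, with 2 higher at an unadjusted p under 0.05) and 7 fell. The backgrounds are those just given. Leaving out 1 array gave 0 to 3 higher and 1 to 3 lower in MUTZ-5, with 1 lower without MUTZ-5 DMSO replicate 3, JQ1 replicate 2 or JQ1 replicate 3, and 3 higher without MUTZ-5 DMSO replicate 3. In MHH-CALL4 it gave 4 to 7 lower, the lowest without MHH-CALL4 DMSO replicate 2. SLBP, the stem-loop binding protein, had 0.24 in MUTZ-5 and 0.20 in MHH-CALL4 (adjusted p = 0.0585 and 0.0986). ZNF473, a zinc finger protein of the histone 3′ end processing complex, fell by 0.29 in MUTZ-5 and by 0.49 in MHH-CALL4. CPSF2 and SYMPK, subunits of the cleavage complex, fell in both lines, CPSF2 by 0.33 and SYMPK by 0.37 in MUTZ-5.

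Of 23 histone chaperone genes, 4 rose and 5 fell in MUTZ-5, and 1 rose and 9 fell in MHH-CALL4, against the same backgrounds. Leaving out 1 array gave 1 to 5 higher and 3 to 5 lower in MUTZ-5, with 1 higher without MUTZ-5 DMSO replicate 2 or any MUTZ-5 JQ1 array, and 3 lower without MUTZ-5 JQ1 replicate 2. In MHH-CALL4 it gave 0 to 1 higher (0 for 10 of the 12 arrays) and 6 to 10 lower. SSRP1, a subunit of the FACT complex, fell by 0.55 in MUTZ-5 and by 0.77 in MHH-CALL4, and IPO4, an importer of H3 and H4, fell by 0.66 and by 0.87. ASF1B, a chaperone of H3 and H4 in replicating cells, rose by 0.33 in MUTZ-5 (limma adjusted p = 0.0073), with 0.12 in MHH-CALL4 (adjusted p = 0.273).

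Genes of S phase were measured for 32 of 37 listed. In MUTZ-5 4 rose and 6 fell, and in MHH-CALL4 2 rose and 13 fell, 8 without MHH-CALL4 JQ1 replicate 2. Over all genes, 9.06% rose and 13% fell in MUTZ-5, and 11% rose and 17.5% fell in MHH-CALL4. TK1, thymidine kinase, rose by 0.40 in MUTZ-5 and 0.52 in MHH-CALL4, and CDK2, the S phase cyclin-dependent kinase, by 0.32 and 0.28. UHRF1, a maintenance factor of DNA methylation, fell by 0.48 and 0.77 in the same order of lines, and MCM2, a subunit of the replicative helicase, fell by 0.38 and 0.68. The list medians were -0.02 in MUTZ-5 (-0.04 to 0.02 over the alternatives) and -0.16 in MHH-CALL4 (-0.20 to -0.10), while those of the 10 histone genes were above 0. The share of cells in S phase was not measured, and its part in the histone values was not tested.

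The members' values moved together to unequal degrees. With each line's 6 arrays centred on their mean, the correlation of a member with the mean of the other 9 over the 12 arrays was 0.98 for H2BC21, 0.97 for H2BC5 and 0.95 for H2BC11, against 0.47 for H2AJ and 0.43 for H2BC4. The arrays share the JQ1 and DMSO groups, and the correlation is a description. The 5 other genes whose centred values were most like the mean of the 10 were CPEB4, ZNF425, SDCBP, WDR91 and AASS, with Pearson correlations from 0.99 to 1.00 over the 12 arrays. All 5 rose in both lines, as 5.74% of all genes did. They were picked for likeness to a mean that rose in both lines, so this is not a separate result. CPEB4, a cytoplasmic polyadenylation element binding protein, rose by 0.91 in MUTZ-5 and 1.19 in MHH-CALL4. AASS, a lysine breakdown enzyme, rose by 1.03 and 1.13 in the same order of lines.

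As reference points for BET inhibition, HEXIM1, an inhibitor of P-TEFb that rises with BET inhibitors, rose by 1.51 in MUTZ-5 and 1.76 in MHH-CALL4, and MYC fell by 1.32 in MUTZ-5 and fell by 2.05 in MHH-CALL4. In MHH-CALL4 the rise of H2BC11 (2.21) and H4C8 (1.77) was thus of the same order as that of HEXIM1. In MUTZ-5 the largest member effects, H2BC5 at 1.43 and H2BC21 at 1.36, stood beside a HEXIM1 effect of 1.51.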

How the data were processed

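RNA was measured on Affymetrix exon arrays. Per the labels and the series' design text, the authors made the deposited log2 values with RMA in Affymetrix Expression Console, once over the core and once over the extended probe set list, which gives 24 columns for 12 arrays. Which arrays were normalized as one set, the software version and the build are not given in the sources used here. The files hold no detection calls, so signal over background is unknown, and no label states that a group's 3 samples came from separate cultures. The p-values thus reflect sample-to-sample spread that could be technical.

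Of 22011 core transcript clusters, 14432 had 1 gene symbol, 2408 several and 5171 none in the annotation table. The row with the highest mean was kept for the 197 genes with several rows, leaving 14232 genes, without a filter on low values. Limma 3.58.1 in R 4.3.3 (lmFit with 1 mean per group, eBayes) was fitted to the 12 core arrays, two-sided, with Benjamini-Hochberg adjustment over all genes and calls at an adjusted p under 0.05. The scripts were tested on simulated data.

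The 10 members and the gene lists were chosen with earlier results of these data known. Named beside the members are up to 3 called genes per list, line and direction, chromosomal neighbours, the 5 most alike genes, SLBP, HEXIM1 and MYC. Of these not all are discussed, and NPAT was not analysed here. H2BC14, H2BC17, H2BC26, H2AC8, H2AX, ASF1B, MPO, LYZ, NKG7, VPREB1, RAG1 and the genes of shared rows were named after their values were seen. Alternatives were the extended form, a replicate block, median centring, cyclic loess, genes at or above the median, eBayes with trend and robust settings, each line alone, the row with the lowest mean, all core clusters, and each array left out. Promoter windows came from RefSeq (GRCh38.p14), and all 10 members had one.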

Additional observations from a re-analysis of the deposited data

Results flagged for a closer look

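The JQ1 effect of 3 histone genes differed between the lines by a test of the difference itself. For H2BC11 it was smaller in MUTZ-5, by -1.003 on the log2 scale (limma, adjusted p = 0.0136), with all 3 JQ1 arrays above all 3 DMSO arrays in both lines. For H4C8 it was also smaller in MUTZ-5, by -1.23 (adjusted p = 0.00122), again without overlap in either line. For H2AJ it was larger in MUTZ-5, by 1.04 (adjusted p = 0.00659), where the JQ1 and DMSO arrays did not overlap, while they overlapped in MHH-CALL4. The MHH-CALL4 values of H2AJ lay below the median of all genes (8.52), with signal over background unknown. The same held for H2BC11 in both MUTZ-5 groups and in MHH-CALL4 with DMSO. Over the alternatives that could give this test, the adjusted p ranged from 0.00571 to 0.129 for H2BC11, from 0.000335 to 0.0146 for H4C8 and from 0.00134 to 0.0321 for H2AJ. With 3 arrays per group, single arrays could not be tested as outliers.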

How the results depend on the processing

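The number of the 10 histone genes called moved with the summary and the scaling. In MUTZ-5 it was 6 (9.06% of all genes higher), 10 in extended form (8.53%), 9 after median centring (12.4%), 9 after cyclic loess (11.7%) and 9 with trend and robust eBayes (9.7%). In MHH-CALL4 it was 5 (11%), 8 in extended form (11%), 8 after cyclic loess (13.9%), and 3 when genes below the overall median were left out (15.2%), where only 7 members were tested. With that filter the difference of effects was called for 1 gene in place of 3, and the level under DMSO for 5 in place of 8. The filter removed H2BC5, H2BC11 and H2AJ, with core means of 8.36, 8.44 and 7.90. All 3 were called under DMSO without it, and H2BC11 and H2AJ for the difference. Leaving out each array in turn gave 5 to 8 in MUTZ-5, 4 to 5 in MHH-CALL4, 3 to 3 for the difference, 6 to 8 under DMSO and 5 to 9 under JQ1, the lowest without MHH-CALL4 JQ1 replicate 1. The cause of the shifts in extended form and after cyclic loess was not tested.

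Across the members' single values, 898 kept direction and side of the threshold, 33 passed in addition, 37 no longer passed and 17 changed sign. The H2AC6 difference between lines changed sign to -1.19 in extended form and passed. The other 16 passed neither before nor after. Of these, the H2BC7 difference was -0.14 in extended form and -0.0233 after cyclic loess. The rest came from leaving out 1 array, over which H2AJ in MHH-CALL4 ranged from -0.17 to 0.0021, H2BC4 in MUTZ-5 from -0.10 to 0.13, the differences of H2BC7 from -0.0117 to 0.0437, of H2BC8 from -0.24 to 0.14 and of H2BC21 from -0.22 to 0.0751, and H1-2 between lines under JQ1 from -0.13 to 0.0762. H2BC5, H2BC11, H2BC21 and H4C8 were called higher in both lines under every alternative in which they were tested, and H2AJ in MUTZ-5.

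Same-numbered arrays deviated in opposite directions in MUTZ-5 (correlations -0.17, -0.21 and -0.44) and in the same direction in MHH-CALL4 (0.30, 0.07 and 0.23). The main fit did not pair samples, and whether the numbers pair samples in either line is unknown. With the replicate block, 5 genes were called in MUTZ-5, 5 in MHH-CALL4 and 3 for the difference; levels between lines could not be fitted with it. Array number, 3 per group, and unknown signal over background limit the precision.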

Other observations

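Some histone genes share a core row with another gene, and these rows did not all move. The row annotated to H2BC18, H3C13 and H2BP1 had 10.88, 10.75 and 10.48 with JQ1 in MUTZ-5, against 8.84, 8.78 and 9.26 with DMSO. In MHH-CALL4 the row had 12.26, 12.08 and 12.02 with JQ1, against 10.17, 10.22 and 10.04 with DMSO. No JQ1 array overlapped a DMSO array of its line, and the row rose by 1.75 in MUTZ-5 and 1.98 in MHH-CALL4 (limma over all 22011 core clusters, adjusted p = 1.23e-05 and 3.59e-06). The row of H3C4 and H2AC7 rose by 0.45 and 0.67 in the same order of lines, and that of H3-3B and H3-5, genes of the replacement histone H3.3, by 0.73 and 0.68. The row of H2BC12 and H2BC12L had 0.82 in MUTZ-5 (adjusted p = 0.0514) and rose by 0.80 in MHH-CALL4 (adjusted p = 0.0466). The row of H2AC14 and H2AC13 had 0.95 in MUTZ-5 and 1.48 in MHH-CALL4 (adjusted p = 0.429 and 0.136), and that of H2BC6 and H2BC9 had 0.46 and 0.97 (adjusted p = 0.692 and 0.225). The row of H2AB1, H2AB2 and H2AB3 had -0.0037 in MUTZ-5 (adjusted p = 0.988) and rose by 0.37 in MHH-CALL4 (adjusted p = 0.00736).

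Rows present in the extended summary alone are given as values without a test. For H2BC18 the means were 7.73 ± 0.12 with JQ1 and 6.82 ± 0.09 with DMSO in MUTZ-5, and 9.38 ± 0.27 with JQ1 and 7.41 ± 0.28 with DMSO in MHH-CALL4 (log2, SD, n = 3). For H2BC9 they were 9.36 ± 0.29 with JQ1 and 8.42 ± 0.10 with DMSO in MUTZ-5, and 10.77 ± 0.20 with JQ1 and 9.06 ± 0.07 with DMSO in MHH-CALL4. A second row that names H2BC21, together with H2BC20P, differed by 1.07 in MUTZ-5 and 0.96 in MHH-CALL4. A second row that names H2BC5, together with H2BC13, differed by 0.51 in MUTZ-5 and 0.66 in MHH-CALL4. The row of H2BC5 alone had 1.20 and 1.78 in the same form and order of lines.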
